A study of Homo sapiens with 15 samples.

Results

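The 10 genes described here encode the cyclins, cyclin-dependent kinases (CDKs) and CDK inhibitors that set the passage through the G1 phase of the cell cycle. They are the D-type cyclins CCND1, CCND2 and CCND3, the E-type cyclins CCNE1 and CCNE2, the kinases CDK4, CDK6 and CDK2, and the inhibitors CDKN1B (p27) and CDKN1C (p57). They were taken by gene symbol from the 43388 genes counted in each library. No cutoff on a measured value was applied, but earlier results of these data were known when they were chosen. Of the 10, 8 had enough counts for the test across genes, and CCND2 and CDKN1C did not.

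D-type cyclins are made in response to growth signals and bind CDK4 or CDK6. These complexes phosphorylate the retinoblastoma protein and its relatives, which releases E2F transcription factors and allows the genes of DNA synthesis to be transcribed. E-type cyclins then activate CDK2, which completes that step and opens S phase. The Cip/Kip inhibitors CDKN1B and CDKN1C bind cyclin-CDK complexes and hold CDK2 inactive. Much of the control acts on the proteins, through their degradation and phosphorylation, and RNA levels alone were measured here.

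RNA was sequenced from A549, a human lung adenocarcinoma line of alveolar epithelial origin, without genetic modification. Cells received all-trans retinoic acid (ATRA, a vitamin A derivative) at 1e-05 mM, ethanol as its vehicle, or no addition, and after 24 hours went into 95% oxygen (hyperoxia) or 21% oxygen (normoxia) for 72 hours. Each oxygen exposure had 2 libraries without addition, 2 with vehicle and 3 with ATRA. The labels do not say whether libraries of a group came from separate cultures, so p-values measure the spread between these libraries, which may be technical.

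Counts on genes ran from 2642377 to 5605072 per library, and 3 counts correspond to 0.535 to 1.14 CPM (read counts relative to library size). Of the epithelial keratins, KRT7, KRT8 and KRT18 were high, with means of 2010, 3064 and 1688 CPM, and KRT19 was lower at 63.8 CPM. Of the other epithelial markers, CDH1 was at 44.8 CPM and EPCAM was low at 2.08 CPM. The summed level of 6 epithelial markers was 3317 to 7001 CPM in hyperoxia and 7221 to 11880 CPM in normoxia, and its part in the results below was not tested. Of the markers of other cell types, CD3E, VWF and DCN had 0 counts in every assigned library. The summed level of 6 fibroblast markers was 0 to 4.59 CPM in hyperoxia and 1.87 to 13.2 CPM in normoxia. Among them, COL1A1 had counts in 12 libraries and a mean of 3.375 CPM. For 4 endothelial markers the sum was 0 to 0.353 CPM in hyperoxia and 0 to 6.26 CPM in normoxia. The summed level of 5 leukocyte markers was 60.4 to 103 CPM in hyperoxia and 17.4 to 32.8 CPM in normoxia, nearly all of it CD68, and PTPRC had 1 count in all. The first hyperoxia library without addition stood apart from the rest. It had counts for 12657 genes against 16465 to 20108 in the others, and its median correlation with the other hyperoxia libraries was 0.831 against 0.915 to 0.965 for the other libraries within their exposure. The first hyperoxia library with ATRA stood apart in a principal component analysis of the remaining 13, and the second stood apart there on the third component, at 71.5 against -23.2 to 25.8 for the others. All were kept. The first 2 are called the libraries that stood apart below, and values without them are given where they change a call.

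In hyperoxia, 3 of the 8 tested members were called, a share close to that of all genes. CCND1 and CDK6 rose, CCND3 fell, and the other 5 genes tested did not pass the test averaged over the 3 treatments. With edgeR's quasi-likelihood test and Benjamini-Hochberg adjustment over 15339 genes, 3 of 8 members were called at an adjusted p under 0.05 in that average, against 31.1% of all genes tested (15.5% higher and 15.5% lower). The 7 hyperoxia and 7 normoxia libraries did not overlap for 3 of the 8 (CCND1, CCND3 and CDK6), against 13.7% of all genes (6.34% higher and 7.31% lower). In bulk RNA, a lower level per cell and fewer cells that express a gene cannot be told apart.

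**Figure D1:**
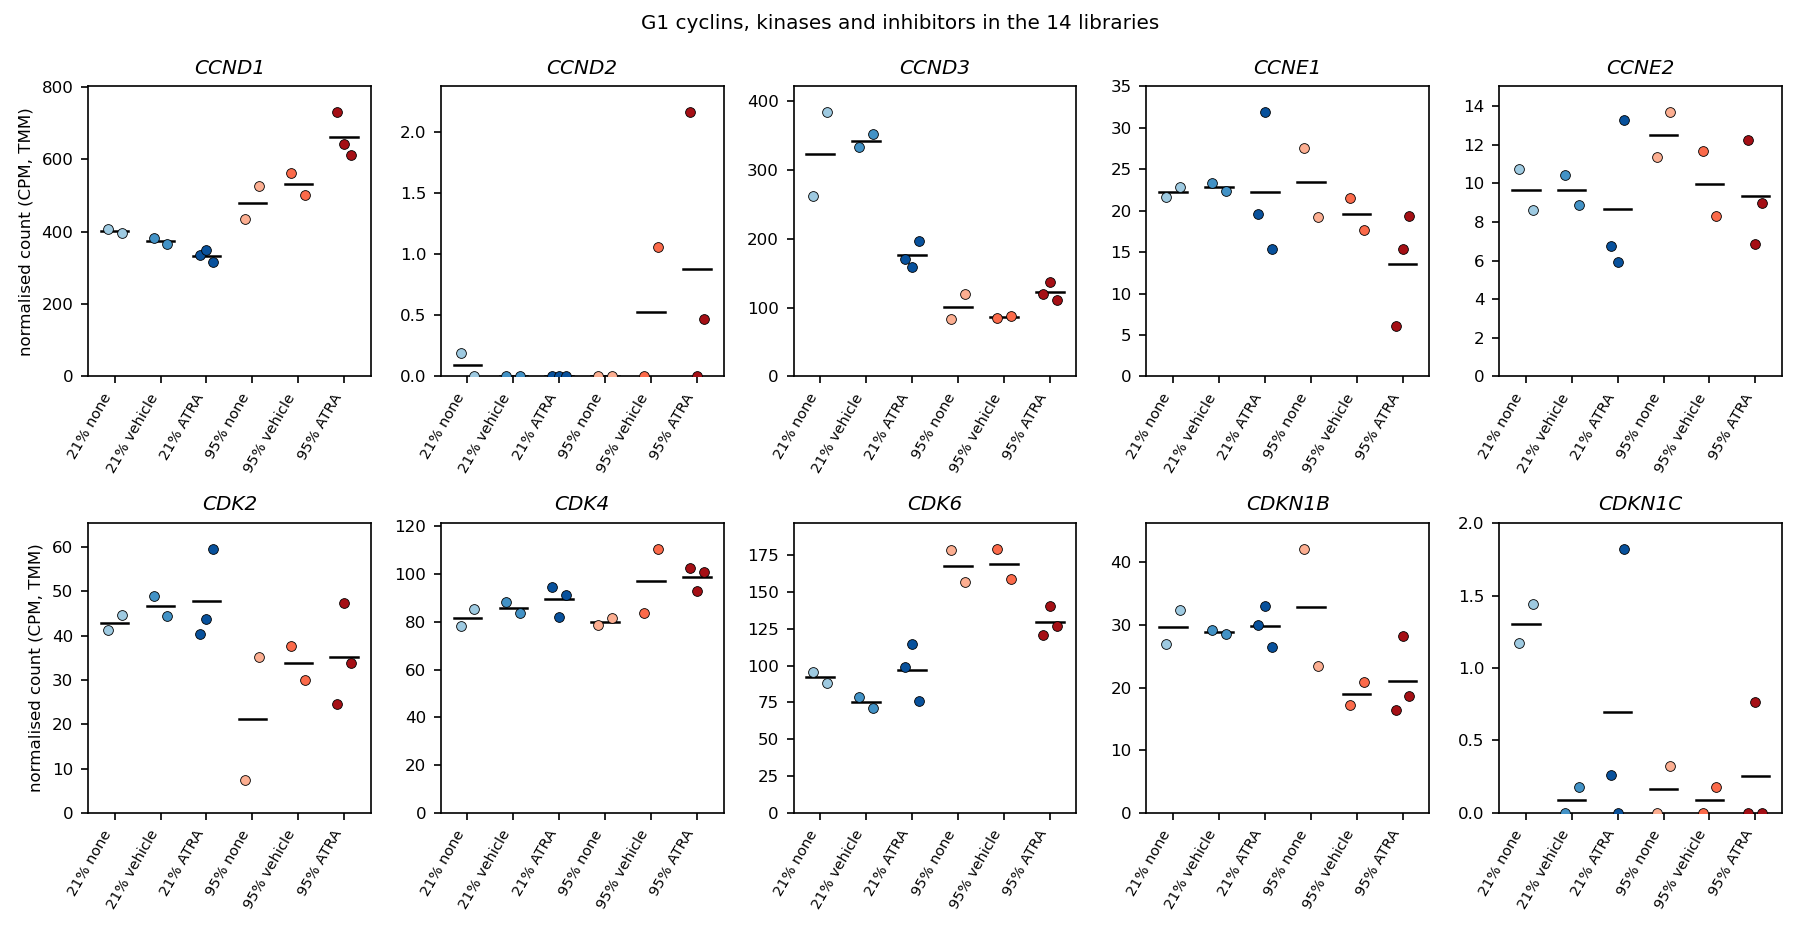
Level of each of the 10 genes in the 14 assigned libraries, in CPM after TMM scaling on linear axes that differ between genes, by oxygen exposure and treatment, with 1 point per library and group means as bars. The hyperoxia points of CCND1 and CDK6 lie above and those of CCND3 lie below their normoxia points without overlap, while CCND2 and CDKN1C are near 0.

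CCND1 encodes cyclin D1, a main partner of CDK4 and CDK6. It lies on the plus strand of chromosome 11 of hg38 from 69641156 to 69654474 and was the member with the highest median level per kilobase of exon in both exposures. In normoxia its level was 408 and 398 CPM without addition, 382 and 366 CPM with vehicle, and 335, 350 and 315 CPM with ATRA. In hyperoxia it was 434.0 and 525.7 CPM without addition, 561 and 503 CPM with vehicle, and 730, 642 and 613 CPM with ATRA. Every hyperoxia library was above every normoxia library, and the 3 hyperoxia libraries with ATRA were the highest of the 14.

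Averaged over the treatments, CCND1 was 1.498-fold higher in hyperoxia, a log2 difference of 0.58 (standard error 0.07, adjusted p = 1.16e-05 from edgeR). By treatment, the difference was 0.25 without addition (adjusted p = 0.211), 0.51 with vehicle (adjusted p = 0.0209) and 0.99 with ATRA (adjusted p = 1.59e-05). It passed the test with ATRA and with vehicle, and not without addition. The call with vehicle was lost when any of the 4 vehicle libraries was left out, with log2 differences of 0.43 to 0.59 and adjusted p from 0.067 to 0.236.

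CCND3 encodes cyclin D3, which binds the same kinases, and lies on the minus strand of chromosome 6 from 41934933 to 42050035. Its annotated starts are far apart, and the RefSeq table for GRCh38.p14 gives 3 promoter windows for it. The 250 bases before the 2 upstream starts are shown because CCND3 was the member with the largest oxygen difference and the only one called for ATRA. Both are read 5′ to 3′ on the minus strand, with the GC box GGGCGG, or its reverse complement, in capitals.
CCND3, chr6:42048689-42048938: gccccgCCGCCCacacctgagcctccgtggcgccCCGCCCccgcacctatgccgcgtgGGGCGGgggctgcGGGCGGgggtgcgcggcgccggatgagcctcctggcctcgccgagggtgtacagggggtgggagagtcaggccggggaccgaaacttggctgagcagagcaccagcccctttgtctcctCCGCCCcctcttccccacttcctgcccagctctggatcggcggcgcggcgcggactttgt
CCND3, chr6:41941809-41942058: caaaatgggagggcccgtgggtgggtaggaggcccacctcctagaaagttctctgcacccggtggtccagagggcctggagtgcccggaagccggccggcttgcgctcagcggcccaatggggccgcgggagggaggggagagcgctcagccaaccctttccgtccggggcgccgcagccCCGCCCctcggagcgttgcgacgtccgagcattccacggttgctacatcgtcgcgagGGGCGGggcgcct

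In normoxia CCND3 was at 261 and 383 CPM without addition, 333 and 352 CPM with vehicle, and 171, 159 and 197 CPM with ATRA. In hyperoxia it was at 82.7 and 120 CPM without addition, 84.6 and 88.4 CPM with vehicle, and 120, 137 and 112 CPM with ATRA. All 7 hyperoxia libraries were below the 7 normoxia libraries, and the 3 normoxia libraries with ATRA lay between the hyperoxia libraries and the other normoxia libraries. Averaged over the treatments, the log2 difference was -1.39 (standard error 0.11, adjusted p = 9.36e-08 from edgeR), a 2.63-fold lower level in hyperoxia.

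The fall of CCND3 was -1.98 on the log2 scale with vehicle (adjusted p = 1.16e-05), -1.68 without addition (adjusted p = 4.37e-05) and -0.52 with ATRA (adjusted p = 0.0446). With vehicle and without addition the call held in each of 14 fits that left out one library. The call with ATRA was lost in 10 of those 14 fits, where the adjusted p ran up to 0.174. A fit to the 4 libraries without addition alone gave the same direction but no call (log2 difference -1.68, adjusted p = 0.0966).

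The 2 detected D-type cyclins moved in opposite directions, and their ratio separated the exposures. CCND1 had 1.04 to 2.20 counts for each count of CCND3 in the 7 normoxia libraries and 4.40 to 6.64 in the 7 hyperoxia libraries. With vehicle the ratio was 1.09 ± 0.08 (SD, n = 2) in normoxia and 6.16 ± 0.67 (SD, n = 2) in hyperoxia. CCND3 held 31.3 to 49.1% of the D-type cyclin counts in normoxia and 13.1 to 18.5% in hyperoxia. Such a ratio within a library does not depend on how libraries are scaled, but both genes were already known to separate the exposures.

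**Figure D2:**
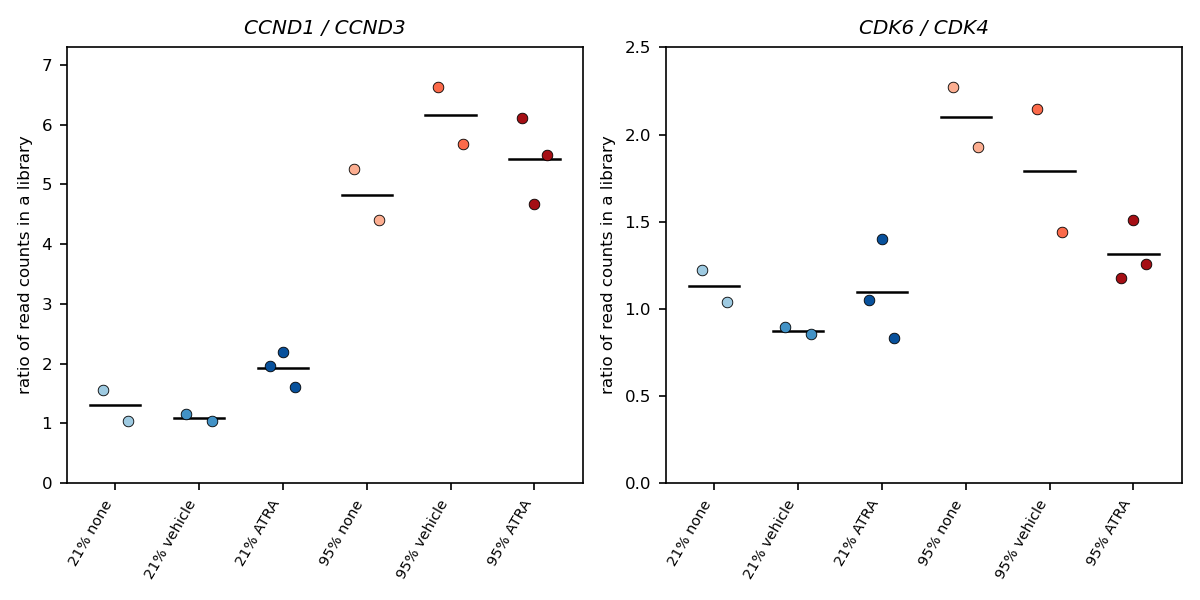
Counts of CCND1 per count of CCND3, and of CDK6 per count of CDK4, in each of the 14 assigned libraries by oxygen exposure and treatment, with group means as bars. The CCND1 to CCND3 ratio is 1.04 to 2.20 in normoxia and 4.40 to 6.64 in hyperoxia, while the CDK6 to CDK4 ratios of the exposures overlap.

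CCND2, the third D-type cyclin, was at or near 0. It had 21 counts over the 14 libraries, in 4 of them, with 12 counts in the first hyperoxia library with ATRA, 6 in the second with vehicle, 2 in the third with ATRA and 1 in the first normoxia library without addition. Only the first 2 of these libraries were above the floor of 3 counts, and no fold is given. A count of 0 allows up to 3 counts, between 0.535 and 1.14 CPM in these libraries, and covers counting error only.

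The E-type cyclins showed no difference by oxygen that passed the test. CCNE1 ranged from 6.13 to 27.6 CPM in hyperoxia (median 19.2) and from 15.4 to 31.8 CPM in normoxia (median 22.3). CCNE2 ranged from 6.89 to 13.7 CPM in hyperoxia (median 11.4) and from 5.93 to 13.3 CPM in normoxia (median 8.87). For both cyclins the exposures overlapped.

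The averaged log2 difference of CCNE1 was -0.29 with a 95% interval of -0.83 to 0.25 (adjusted p = 0.431 from edgeR), and that of CCNE2 was 0.18 with an interval of -0.44 to 0.79 (adjusted p = 0.685). The libraries held 34 to 138 counts of CCNE1 and 18 to 68 counts of CCNE2, against 1099 to 4049 of CCND1. INTS8, on the opposite strand at the CCNE2 locus, had 528% as many counts as CCNE2, and NDUFAF6 had 144%. The library kit kept strand, and the strand setting of the counting is not given in the sources used here.

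CDK6, a kinase partner of the D-type cyclins, lies on the minus strand of chromosome 7 from 92604921 to 92836573. The 250 bases before its upstream RefSeq start are shown as those of the called kinase, with GC boxes in capitals.
CDK6, chr7:92836574-92836823: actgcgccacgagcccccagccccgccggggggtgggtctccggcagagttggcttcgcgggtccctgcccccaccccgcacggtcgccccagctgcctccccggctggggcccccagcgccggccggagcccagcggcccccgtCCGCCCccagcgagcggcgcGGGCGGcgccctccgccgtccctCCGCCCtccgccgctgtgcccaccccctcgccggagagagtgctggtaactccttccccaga

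In normoxia CDK6 was at 95.7 and 88.5 CPM without addition, 78.9 and 71.3 CPM with vehicle, and 99.4, 115 and 76.2 CPM with ATRA. In hyperoxia it was at 179 and 157 CPM without addition, 179 and 159 CPM with vehicle, and 121, 140 and 127 CPM with ATRA. The exposures did not overlap, and the 3 hyperoxia libraries with ATRA were the lowest of that exposure. The averaged log2 difference was 0.82 (standard error 0.10, adjusted p = 8.66e-06 from edgeR), which is 1.76-fold.

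By treatment, CDK6 was higher in hyperoxia by 1.17 on the log2 scale with vehicle (adjusted p = 0.000466) and by 0.87 without addition (adjusted p = 0.00368). With ATRA the difference was 0.42 and did not pass the test (adjusted p = 0.0754), and it did pass without the first hyperoxia library without addition (0.41, adjusted p = 0.0403). It also passed without the second normoxia library with ATRA (0.53, adjusted p = 0.0404), without both libraries that stood apart (0.46, adjusted p = 0.0346) and with the 10 vehicle and ATRA libraries alone (0.42, adjusted p = 0.0386). In a fit to the 4 libraries without addition alone, the call there was lost (0.86, adjusted p = 0.134).

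CDK4, which binds the same cyclins as CDK6, had the narrowest relative range of the 8 tested members. It ranged from 78.2 to 94.7 CPM in normoxia (median 85.4) and from 78.5 to 111 CPM in hyperoxia (median 93.0). The exposures overlapped, the averaged log2 difference was 0.10, and its 95% interval of -0.09 to 0.29 does not reach the difference of CDK6 (adjusted p = 0.450 from edgeR). TSPAN31, on the opposite strand at the CDK4 locus, had 96.7% as many counts as CDK4 and a log2 difference of 0.35 (adjusted p = 0.0207). CDK6 had 0.835 to 1.40 counts for each count of CDK4 in normoxia and 1.18 to 2.28 in hyperoxia, and these ranges overlapped through the ATRA libraries.

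CDK2, the kinase partner of the E-type cyclins, had an oxygen difference whose size and call changed with the libraries and method used. In normoxia it was at 41.3 and 44.6 CPM without addition, 49.0 and 44.3 CPM with vehicle, and 40.4, 43.7 and 59.6 CPM with ATRA. In hyperoxia it was at 7.39 and 35.2 CPM without addition, 37.6 and 30.0 CPM with vehicle, and 24.7, 47.4 and 33.8 CPM with ATRA. The lowest value, 37 counts, was in the first hyperoxia library without addition, and the exposures overlapped through the second hyperoxia library with ATRA. The averaged log2 difference was -0.66 (standard error 0.26, adjusted p = 0.0629 from edgeR). Without the first hyperoxia library without addition it was -0.41 and passed the test (adjusted p = 0.0476), and without the second it was -1.19 (adjusted p = 3.98e-06). Without both libraries that stood apart it was -0.34 (adjusted p = 0.0631), and without the second hyperoxia library with ATRA it was -0.75 (adjusted p = 0.0489). With all libraries it also passed with DESeq2 (-0.67, adjusted p = 0.0385), with total counts as library size (-0.67, adjusted p = 0.0491) and with no filter on low counts (-0.68, adjusted p = 0.000933).

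CDKN1B, the inhibitor p27, was at 26.9 and 32.4 CPM without addition, 29.2 and 28.6 CPM with vehicle, and 30.0, 33.1 and 26.5 CPM with ATRA in normoxia. In hyperoxia it was at 42.1 and 23.5 CPM without addition, 17.2 and 20.8 CPM with vehicle, and 16.4, 28.3 and 18.7 CPM with ATRA. The highest value of the 14 was in the first hyperoxia library without addition, the library in which CDK2 was lowest, and the exposures overlapped. The averaged log2 difference was -0.32 (standard error 0.19, adjusted p = 0.218 from edgeR), and without that library it was -0.49 and passed the test (adjusted p = 0.0287). Without both libraries that stood apart it was -0.43 (adjusted p = 0.0349). GPR19, on the opposite strand, had 42.4% as many counts as CDKN1B.

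CDKN1C, the inhibitor p57, was as low as CCND2. It had 25 counts over the 14 libraries, in 8 of them, with a highest count of 7 in the third normoxia library with ATRA. Besides that library, only the normoxia libraries without addition were above the floor of 3 counts, with 6 counts each. No hyperoxia library had over 2 counts. CDKN1C was not tested, and no fold is given.

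**Figure D3:**
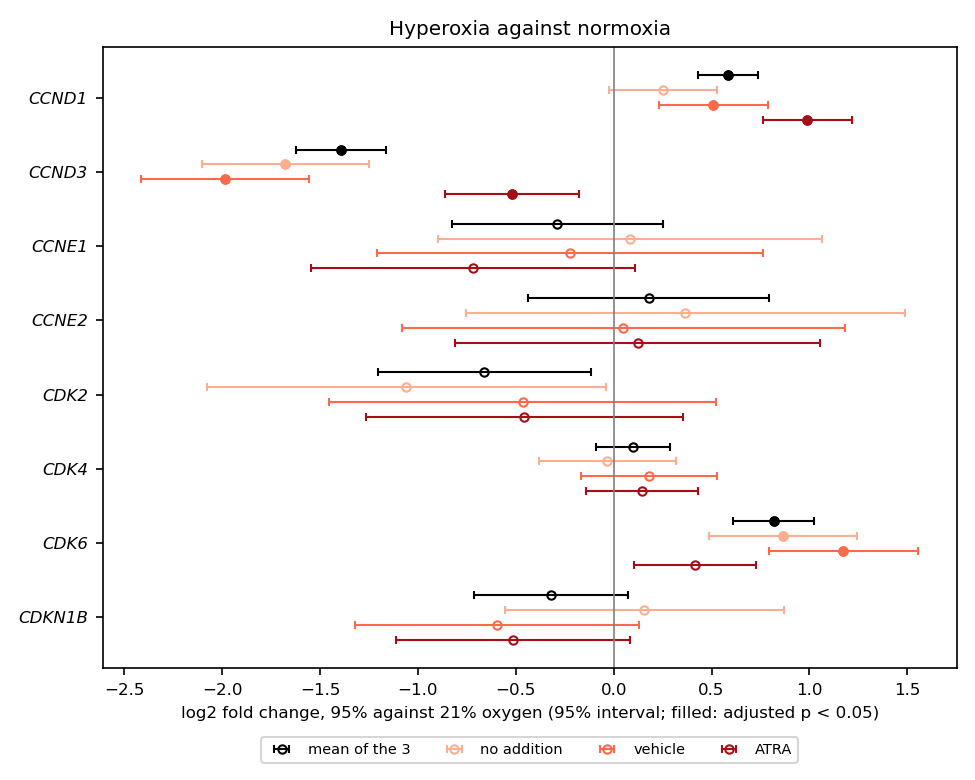
Log2 fold change of hyperoxia against normoxia for the 8 tested members, averaged and by treatment, with 95% intervals, filled where the adjusted p was under 0.05. The points of CCND3 lie below 0 in each treatment, and those of CDK6 and CCND1 lie above 0. The interval of CCND1 without addition includes 0, as do those of the E-type cyclins, CDK4 and CDKN1B.

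By treatment, 2 of the 8 tested members rose and 1 fell with vehicle, where 9.26% of all genes were called, 4.62% higher and 4.64% lower. Without addition 1 rose and 1 fell, where 15.2% were called, 7.57% higher and 7.58% lower. With ATRA 1 rose and 1 fell, where 12.9% were called, 6.45% higher and 6.43% lower. These comparisons use the libraries of the average and are not independent of it. Vehicle itself was compared with no addition at each exposure, and no member passed edgeR's test. In normoxia 0 of 8 members and 133 of all genes had an unadjusted p under 0.05, and 0% of all genes were called. In hyperoxia 1 of 8 members and 1366 of all genes had an unadjusted p under 0.05, and 0.00652% of all genes were called. DESeq2 also called no member in either comparison.

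Per kilobase of exon, the order of the members differed between the exposures. In normoxia the medians were 76.8 CPM per kb for CCND1, 45.4 for CCND3, 27.6 for CDK4, 11.4 for CDK2, 9.08 for CCNE1, 7.23 for CDK6, 3.16 for CDKN1B and 2.02 for CCNE2. The ranges of each neighbouring pair in that order overlapped, except CDK4 with CDK2 and CDK6 with CDKN1B. In hyperoxia the medians were 118 CPM per kb for CCND1, 30.1 for CDK4, 19.4 for CCND3, 12.8 for CDK6, 8.69 for CDK2, 7.81 for CCNE1, 2.59 for CCNE2 and 2.25 for CDKN1B. There CCND1 with CDK4 and CDK4 with CCND3 did not overlap, while CCND3 with CDK6, CDK6 with CDK2, CDK2 with CCNE1, CCNE1 with CCNE2 and CCNE2 with CDKN1B did. Lengths are of merged GENCODE 44 exons, so they do not account for which transcripts the cells use.

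ATRA was compared with vehicle at each oxygen exposure. In normoxia CCND3 was the member called, 1 of 8 against 0.456% of all genes (0.3% higher and 0.156% lower), with 171, 159 and 197 CPM in the ATRA libraries against 333 and 352 CPM with vehicle. Its log2 difference was -0.96 (standard error 0.17, adjusted p = 0.0215 from edgeR), which is 1.95-fold lower. The ATRA libraries were also below both normoxia libraries without addition, and against these and vehicle together the difference was -0.92 (adjusted p = 0.00479). The call was lost when either vehicle library or the first or second ATRA library was left out, with adjusted p from 0.109 to 0.318.

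In hyperoxia no member passed the test for ATRA, against 0.756% of all genes (0.489% higher and 0.267% lower), while 3 of 8 members (CCND1, CCND3 and CDK6) had an unadjusted p under 0.05, as had 1215 of all genes. DESeq2 also called no member there. CCND3 was at 120, 137 and 112 CPM with ATRA against 84.6 and 88.4 CPM with vehicle, a log2 difference of 0.50 (adjusted p = 0.423 from edgeR), and these libraries overlapped with those without addition. CCND1 differed by 0.32 (adjusted p = 0.454) and CDK6 by -0.39 (adjusted p = 0.504). For these 2 genes the ATRA libraries did not overlap with the other 4 hyperoxia libraries, CCND1 lying above them and CDK6 below. The share of all genes that separate in this way is not given here, and neither difference passed the test.

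For CCND1 in normoxia, the ATRA libraries lay below the other 4, again with no share over all genes given (log2 difference -0.17, 95% interval -0.42 to 0.09, adjusted p = 1.00 from edgeR). For CDK6 in normoxia, they overlapped with vehicle (0.37, interval 0.01 to 0.72, adjusted p = 0.934). CDK4 differed by 0.06 in normoxia and 0.03 in hyperoxia, with intervals of -0.26 to 0.38 and -0.29 to 0.34. The intervals of CCNE1, CCNE2, CDK2 and CDKN1B were wider and included 0 at both exposures.

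**Figure D4:**
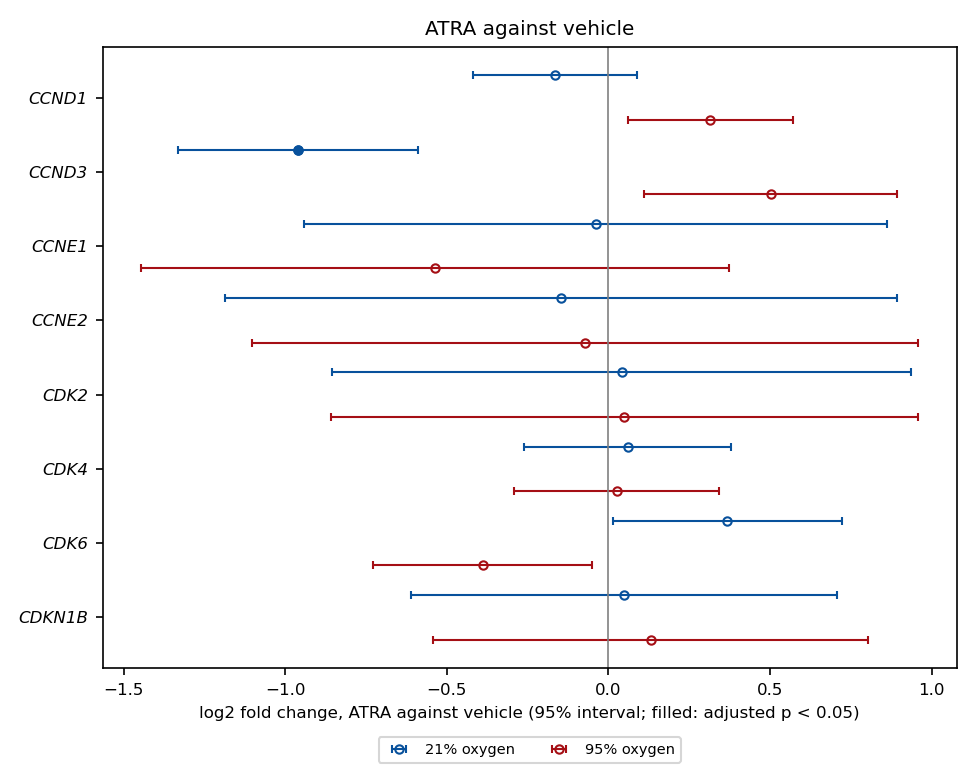
Log2 fold change of ATRA against vehicle in 21% and in 95% oxygen for the 8 tested members, with 95% intervals, filled where the adjusted p was under 0.05. CCND3 in normoxia, at -0.96, is the filled point, and its hyperoxia point lies on the other side of 0.

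Whether the ATRA difference itself changed with oxygen was tested by an interaction term. CCND3 had the largest term among the members, 1.46 on the log2 scale (standard error 0.26, 95% interval 0.92 to 2.01), and missed the threshold over all genes (adjusted p = 0.0862 from edgeR). The term of CDK6 was -0.76 (adjusted p = 0.995) and that of CCND1 was 0.48 (adjusted p = 1.00). No member was called, against 0.0261% of all genes, and 3 of 8 members and 542 of all genes had an unadjusted p under 0.05.

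The term of CCND3 kept its size, between 1.37 and 1.55, in each of 21 alternative fits and passed the threshold in 10 of them, a pair of which are the same fit for this term. It passed with DESeq2 (adjusted p = 2.07e-05), with the 10 vehicle and ATRA libraries alone (0.000828) and without the first hyperoxia library without addition (0.00322). In the 10 fits that left out a single vehicle or ATRA library it did not pass, with adjusted p up to 1.00, and without both libraries that stood apart it did (0.00497). An interaction term and the oxygen difference with ATRA rest on the same libraries.

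The other genes of the pathway were described from lists, with the oxygen difference averaged over treatments and a median of -0.03 over all genes, whose middle 50% lay between -0.48 and 0.39. Of all genes 15.5% were called higher and 15.5% lower in this comparison, the background to each list's counts. Among the CDK inhibitors outside this group, CDKN1A (p21), which binds the same complexes as CDKN1B, was at 963 to 1140 CPM in hyperoxia and 65.0 to 108 CPM in normoxia. Its log2 difference was 3.62 (adjusted p = 1.07e-12 from edgeR), against -0.32 for CDKN1B. CDKN2C (p18), an inhibitor of CDK4 and CDK6, fell by 2.48 (adjusted p = 0.00178), with 0 to 6.39 CPM in hyperoxia and 11.2 to 22.1 CPM in normoxia. CDKN2D was at -0.81 and did not pass (adjusted p = 0.483), and CDKN2A and CDKN2B had 0 counts in all 14 libraries.

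Of the targets of the CDK4 and CDK6 complexes, 1 of 3 pocket proteins fell and none rose. RBL1 (p107) fell by 0.78 (adjusted p = 0.000849), RB1 was at -0.14 (adjusted p = 0.514) and RBL2 at -0.06 (adjusted p = 0.783). Of 10 E2F and DP factors, 4 fell and 0 rose, with a median of -0.52. E2F1 fell by 1.26 (adjusted p = 0.00076), E2F2 by 0.97 (adjusted p = 0.0107) and E2F8, a repressor of the family, by 1.82 (adjusted p = 0.0269).

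Among 15 E2F target genes of S phase entry, 9 fell and 0 rose, with a median of -0.96. TK1, the thymidine kinase, fell by 1.44 (adjusted p = 1.42e-06) and ranged from 36.9 to 68.5 CPM in hyperoxia and 111 to 184 CPM in normoxia. CDC45, of the replicative helicase, fell by 1.38 (adjusted p = 0.031). CCNE1 and CCNE2 are in this list and were among the 6 genes not called.

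The cyclins that act after G1 fell together with CDK1. All 5 tested genes of that list were called lower, with a median of -2.27. CCNB1, the mitotic cyclin B1, was at 3.795 to 17.8 CPM in hyperoxia and 106 to 171 CPM in normoxia, CCNB2 fell by 2.45 and CCNA2, which follows cyclin E at CDK2, by 2.27. Their ranges did not overlap between the exposures, whereas those of CCNE1 and CCNE2 did.

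Of 10 genes of the ubiquitin ligases that degrade G1 cyclins and inhibitors, 1 rose and 4 fell. SKP2, which marks CDKN1B for degradation, fell by 1.51 (adjusted p = 0.00389), as did its cofactor CKS1B, by 1.05 (adjusted p = 0.00438). FBXW7, which marks cyclin E, rose by 1.17 (adjusted p = 0.000477). By treatment, SKP2 passed edgeR's test without addition (-2.61, adjusted p = 0.0182), and not with vehicle (-0.94, 0.472) or ATRA (-0.96, 0.265). CKS1B also passed without addition (-1.79, adjusted p = 0.0184), and not with vehicle (-0.60, 0.537) or ATRA (-0.75, 0.234). The first hyperoxia library without addition is among those that stood apart. The protein levels of CDKN1B and cyclin E were not measured.

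Of 8 genes of the CDK-activating kinase and the phosphatases and kinases that switch CDKs, 1 fell and 0 rose. That gene, CDC25B, fell by 0.62 (adjusted p = 6.46e-06), while CDC25C was at -1.44 (adjusted p = 0.0569) and MNAT1 at 0.49 (adjusted p = 0.117). Of 9 tested transcription factors that act on member genes, 2 rose and 1 fell. JUN, a factor known to act on CCND1, rose by 2.34 (adjusted p = 4.25e-10), FOXM1 fell by 1.58 (adjusted p = 1.71e-08), and FOXO4 was at 0.51 (adjusted p = 0.545).

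Of 24 tested genes among the other CDKs and cyclins, 5 rose and 2 fell, with a median of 0.07. CCNK, a partner of transcriptional CDKs, rose by 1.11 (adjusted p = 4.76e-05), CDK1, which is also in the list of later cyclins, fell by 1.77 (adjusted p = 1.59e-06), and CCNG2 was at -0.94 (adjusted p = 0.0748). Without the 2 libraries that stood apart, 6 of these genes rose and 5 fell, and 3 of the 8 genes that switch CDKs fell. Outside the 10 genes themselves, the counts of the other pathway lists in this comparison were the same without them, as was the direction of each median. The median was then -1.83 for the later cyclins, -0.81 for the E2F target genes and -0.22 for the E2F and DP factors.

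**Figure D5:**
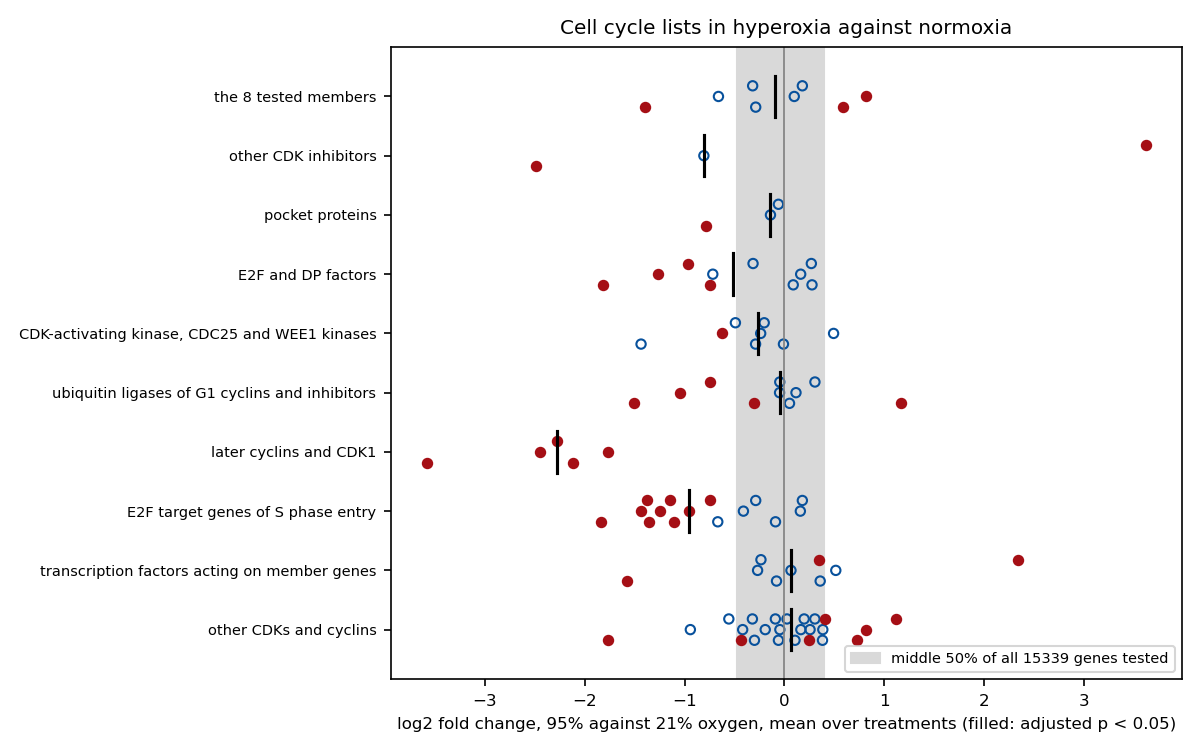
Log2 fold change of hyperoxia against normoxia, averaged over treatments, for each tested gene of the pathway lists, filled where the adjusted p was under 0.05, with list medians as bars and the middle 50% of all genes in grey. The later cyclins and CDK1 lie below 0, with a median of -2.27, while the G1 genes lie on both sides of it.

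Over the 14 libraries, the genes most like the called members in log2 CPM were AK1 (Pearson r = 0.950) and TP53I3 (r = 0.944) for CCND1, CLU (r = 0.988) and OAS1 (r = 0.959) for CCND3, and EIF5 (r = 0.966) and AFF4 (r = 0.965) for CDK6. These values include the oxygen difference that the genes share. Within the 7 libraries of 1 exposure, CLU had r = 0.974 with CCND3 in hyperoxia and 0.985 in normoxia, and TP53I3 had 0.847 and 0.546 with CCND1. CCND1 and CCND3 themselves had r = -0.58 over the 14 libraries, and 0.71 in hyperoxia and 0.70 in normoxia. The opposite movement thus lies between the exposures and not within them. The libraries of 1 exposure still mix no addition, vehicle and ATRA. Each r within an exposure therefore includes any treatment difference that the genes share, and r within a treatment was not tested.

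Promoter windows in the RefSeq table, from 250 bases before to 50 after a start, were searched for 5 of the 10 members (CCND3, CDK6, CDKN1B, CDK4 and CCNE1), 8 windows in all. No window of CCND1, CCND2, CCNE2, CDK2 or CDKN1C was searched. Member windows on chromosome 8, where CCNE2 lies, were left out of the search. The E2F letters TTTCCCGC, TTTGGCGC or TTTCGCGC, searched on both strands, were in 0 of the 8 windows and in 2.74% of 35116 windows of all genes. The CHR letters TTTGAA were in 0 of 8 and 15.2%, and the CRE letters TGACGTCA in 0 of 8 and 1.85%. The GC box GGGCGG was in 6 of 8 windows and 45% of all, with 5 matches in the first CCND3 window shown above, 4 in the second, 2 of them after the start, and 3 in that of CDK6. A match describes the letters of the window alone.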

How the data were processed

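RNA of A549 cells was sequenced from 15 stranded libraries. Per the labels and the study's methods, the authors trimmed reads with Trimmomatic (version 0.38 in the submitters' processing notes), used HISAT2 for alignment to the hg38 genome, and tallied reads for each gene symbol in HTSeq. The deposited values are these raw read counts, without normalization. The annotation release and strand setting are not given in the sources used here. Rows that name no gene were left out, and reads in no feature were 48.65 to 55.28% of all reads in a file.

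Counts of 14 libraries in 6 groups were fitted with edgeR 4.0.16 (limma 3.58.1, R 4.3.3): filterByExpr with a minimum count of 10 and total of 15, TMM scaling, and glmQLFit and glmQLFTest with Benjamini-Hochberg adjustment over 15339 genes, called under 0.05. CPM are TMM-scaled, and log2 CPM used a prior count of 2. Standard errors and 95% intervals were derived from the quasi-likelihood F statistics. One library whose treatment label contradicts its title entered no comparison. Depth was 2642377 to 5605072 counts on genes per library.

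The members and lists were chosen with earlier results of these data known. All 10 members are named, with up to 3 genes per list by absolute log2 difference, the 2 genes most like each called member, and overlapping genes. A result for 1 gene that this rule covers is not reported here. Alternatives were DESeq2 1.42.0, RLE size factors, total counts, no filter, fewer groups, an additive model, pooled controls, each library left out and, added after seeing the data, both libraries that stood apart left out. The fits were tested on simulated data. Plots used matplotlib 3.10.9 in Python 3.11.15.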

Additional observations from a re-analysis of the deposited data

Results flagged for a closer look

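For CCND1, the 3 ATRA libraries lay below both vehicle libraries in normoxia and above both in hyperoxia. The share of all genes with this arrangement is not given here. The interaction term of CCND1 was 0.48 on the log2 scale (adjusted p = 1.00 from edgeR), so the difference between the exposures did not pass the test. CCND3 had the same arrangement, with an interaction term of 1.46 that missed the threshold (adjusted p = 0.0862 from edgeR) and passed it in 10 of 21 alternative fits.

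The library with contradicting labels, which entered no comparison, lay above the 7 normoxia libraries for 3 members on the scale of total counts. It had 560 CPM of CCND1, 99.0 CPM of CDK4 and 138 CPM of CDK6. On the same scale it lay below the 7 normoxia libraries for CCND3, at 105 CPM, and for CDK2, at 37.1 CPM.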

How the results depend on the processing

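No paired analysis was possible because the labels give no replicate numbers shared by the groups.

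In the averaged comparison by oxygen, CCND1, CCND3 and CDK6 kept their direction and call in each of 20 alternative fits, with log2 differences of 0.50 to 0.64, -1.53 to -1.27 and 0.76 to 0.85. Members called there numbered 3 to 5 when one library was left out, with 5 without the first hyperoxia library without addition. They were 4, with CDK2 lower added, with DESeq2, total counts and no filter, and 4, with CDKN1B lower added, without both libraries that stood apart. For the interaction, 1 member (CCND3, higher) was called in place of 0 with DESeq2, total counts, no filter, the groups compared alone, the 10 vehicle and ATRA libraries, and without both libraries that stood apart. With the groups compared alone, 5 members in place of 3 were called for oxygen with vehicle, and 0 in place of 2 without addition. When one library was left out, members called numbered 2 to 3 with vehicle, 2 to 3 without addition, 1 to 3 with ATRA, 0 to 1 for ATRA in normoxia, 0 to 1 for the interaction and 0 to 2 for vehicle in hyperoxia (2, CDK2 and CDKN1B, without the second hyperoxia library without addition). The cause was not tested.

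Genes called among all genes went from 1420 to 4665 for oxygen with vehicle and from 2324 to 58 without addition when the groups compared were fitted alone, from 70 to 236 for ATRA in normoxia and from 4764 to 6112 for the averaged oxygen difference without both libraries that stood apart, and from 116 to 331 for ATRA in hyperoxia with the 10 vehicle and ATRA libraries. For the interaction, 4 genes became 46 with DESeq2. The median of all genes in the averaged comparison was -0.03, and -0.15 with DESeq2 and with no filter, which add genes with low counts. No called value changed sign. At this depth CCND2 and CDKN1C gave no comparison, and CCNE1, CCNE2, CDK2 and CDKN1B had wide intervals.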

Other observations

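The library with contradicting labels had 4415705 counts on genes. Scaled by TMM with the other libraries, it had 545 CPM of CCND1, 102 CPM of CCND3, 134 CPM of CDK6 and 96.3 CPM of CDK4. CDK2 was at 36.1 CPM, CDKN1B at 28.2 CPM, CCNE1 at 18.7 CPM and CCNE2 at 6.17 CPM, and CCND2 had 0 counts and CDKN1C 3.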
